A study of Arabidopsis thaliana with 4 samples.

Results

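Of the 4155 peaks called for the ANAC060-GFP precipitate from seedlings grown without glucose, 402 (9.68%, exact 95% interval 8.79% to 10.6%) had their centre more than 1 kb from the body of every protein-coding gene. They were selected by position alone, from the start and end of each peak on the 5 nuclear chromosomes and the bodies of 27444 protein-coding genes, and they are called far peaks here. The other 3753 peaks of the same list, with centres in a gene body or within 1 kb of one, served as the comparison. The whole series held 7014 peaks, since a list of 2859 peaks was deposited for seedlings given glucose.

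In Arabidopsis thaliana, ANAC060 belongs to the NAC family of transcription factors and has been tied to sugar and abscisic acid (ABA) signalling in seedlings. NAC proteins bind short DNA motifs, and sites of plant transcription factors are often found in the upstream sequence next to a gene. In the compact Arabidopsis genome the arms of the chromosomes are packed with genes, so that a site far from coding sequence lies either in one of the longer gaps of the arms, where noncoding RNA genes, long promoters and downstream sequence are found, or in the repeat-rich, gene-poor sequence around the centromeres. Ribosomal RNA repeats, transposon relics and organelle DNA inserted into the chromosomes are known features of that second kind of sequence.

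The precipitates came from whole seedlings of a 35S:ANAC060-GFP/anac060 transgenic line in the Columbia (Col-0) background, in which the constitutive 35S promoter drives the GFP fusion in the anac060 mutant. Seedlings were 10 d old, kept at 22 °C in constant light after 3 d of stratification, and grown either with 6% glucose or without it, and an anti-GFP antibody was used. The labels' treatment protocol also mentions 6% sorbitol and does not make clear which seedlings were given it, so the medium behind the label without glucose is not fully known. Each precipitate had as its control the input DNA of wild-type seedlings of the same treatment, taken with no antibody, so that precipitate and control differed in genotype as well as in antibody. There was 1 library in each of the 4 groups, and each list came from 1 precipitate against 1 input. No difference between the lists therefore has a replicate check, and all tests compare peaks within these lists. The deposited score of a peak is the authors' own value and behaves as -10 times the log10 of the peak caller's p-value, with a ceiling of 3100 and a lowest value of 100.01 without glucose and 30.02 with glucose. Scores of the 2 lists stand on their own scales and are set side by side only as a description. Depth was unknown, and all intervals cover counting error alone.

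Most far peaks lay a short way past the limit and between genes that were close on both sides. The distance from the centre to the nearest protein-coding gene had a median of 1623.5 bp. It was between 1 and 1.5 kb for 178 peaks (44.3%), between 1.5 and 2 kb for 81 (20.1%), between 2 and 3 kb for 74 (18.4%) and between 3 and 5 kb for 49 (12.2%). Another 12 were 5 to 10 kb away and 8 were more than 10 kb away, up to 129305 bp. In 272 of the 402 (67.7%) a protein-coding gene lay within 5 kb on each side of the centre. The gap between the flanking genes had a median of 5405.5 bp. The peaks were spread over all chromosomes, with 99, 67, 82, 65 and 89 far peaks on chromosomes 1 to 5.

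The rule used the centre, and many far peaks were wide enough to reach a gene all the same. The interval of 124 peaks (30.8%) overlapped a protein-coding gene, and 57 (14.2%) overlapped at least 2. These 124 had a median width of 4041 bp and a median score of 545.3. A further 145 (36.1%) ended within 1 kb of a gene without touching it, with medians of 1779 bp and 166.0. The remaining 133 (33.1%) lay whole more than 1 kb from any protein-coding gene, with a median distance of 2919 bp, a median width of 1625 bp and a median score of 176.3. The set thus held both broad, high-scoring regions whose middle fell between genes and narrower, lower-scoring peaks clear of coding sequence. With its centre over 1 kb away, a peak can overlap a gene only if it is wider than 2 kb. The lowest width among the 124 was 2244 bp, so the width contrast follows in part from the rule.

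**Figure D1:**
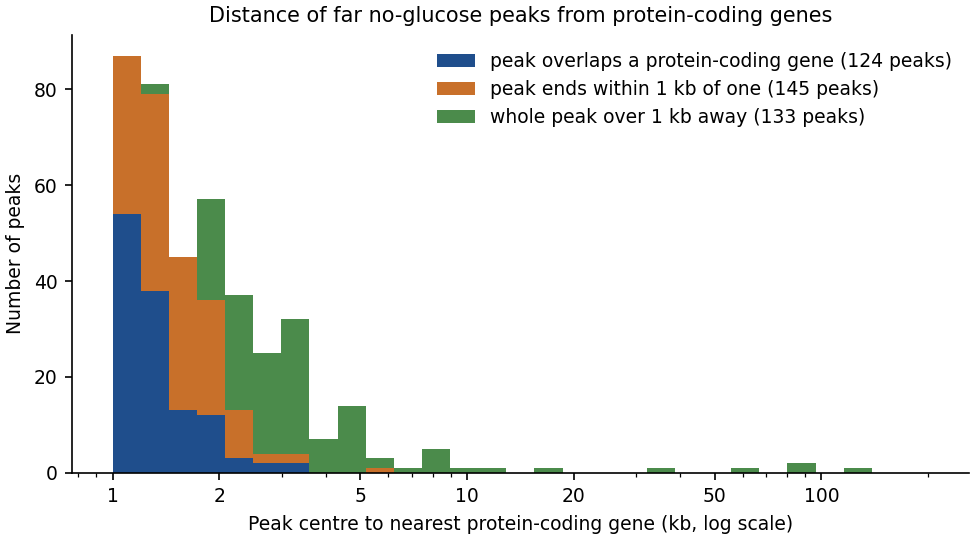
Far peaks by the distance of their centre from the nearest protein-coding gene, in kb on a log axis, with the number of peaks on the vertical axis and stacked colours for how far the peak itself reaches. The 124 peaks that overlap a gene sit near 1 kb, with a median distance of 1247 bp, and the 133 peaks wholly over 1 kb away make up the long tail, with a median of 2919 bp.

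Just inside the limit stood the peaks by AGL19, a MADS-box gene (centre at 1001 bp), APK2A (1002 bp), AT4G01671 (1006 bp), ATBCAT-5 (1009 bp) and AT4G20000 (1013 bp), with scores of 256.3, 224.6, 168.0, 238.0 and 487.0 in that order. Just outside it stood those by GTE7 (1000 bp; score 645.6), AT1G31940 (999.5 bp; 151.8), AT2G40270 (991 bp; 101.5), the homeobox gene KNAT3 (991 bp; 144.9) and ATPUP13 (989 bp; 2031.8). The scores on both sides of the limit ranged widely.

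Far peaks were sparser than peaks next to genes. Their centres fell at 13.2 per Mb of sequence more than 1 kb from protein-coding genes (402 peaks in 30.4 Mb). The 1 kb flanks of genes held 2162 peak centres in 24.3 Mb (89.0 per Mb) and gene bodies held 1591 in 64.5 Mb (24.7 per Mb). Of the 6538 gaps between protein-coding genes that were longer than 2 kb, 388 (5.93%) held a far peak. The share of gaps with one was 2.44% for gaps of 2 to 3 kb, 6.06% for 3 to 5 kb, 10.2% for 5 to 10 kb, 9.30% for 10 to 20 kb and 6.20% above 20 kb. Counted per Mb of far sequence, the order was different. There were 54.4 far peaks per Mb in gaps of 2 to 3 kb, 32.6 in gaps of 3 to 5 kb, 21.8 in gaps of 5 to 10 kb, 9.2 in gaps of 10 to 20 kb and 1.69 in gaps over 20 kb, so that the density fell with each step in gap length. The share of far sequence that reads can be mapped to uniquely was not used here.

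**Figure D2:**
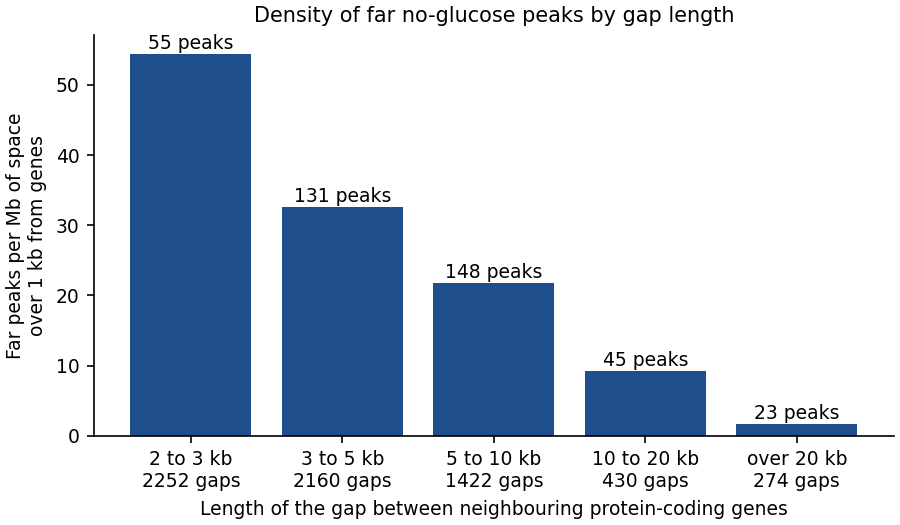
Gaps between neighbouring protein-coding genes by length on the horizontal axis, and far peaks per Mb of sequence more than 1 kb from genes on the vertical axis, as bars with the number of far peaks above and the number of gaps below. The density falls from 54.4 per Mb in the shortest gaps to 1.69 per Mb in the longest.

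Outside gene-poor windows, and apart from the far peaks by AT4G08330 and AT2G07641 described further on, the highest scores belonged to broad regions of 5320 to 13856 bp. Coordinates are given for TAIR10. The far peak by ARR4, a type-A response regulator of cytokinin signalling, spanned 13856 bp (chromosome 1, 3439946 to 3453801) and scored 2594.3. Its centre lay 2513 bp from ARR4 and 2694 bp from ZFP5, a zinc finger gene, and its interval overlapped both of these as well as GLP7 and AT1G10490. Glucose peaks overlapped it at 2 places, the best with a score of 374.0. The region thus spanned a whole gene gap and reached the genes at both its ends.

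The far peak by NAC083, itself a NAC gene, spanned 8868 bp (chromosome 5, 4189515 to 4198382), scored 2404.2 and overlapped NAC083, an lncRNA gene and a misc_RNA gene. Its best glucose partner scored 344.2. A separate small far peak in the same gap, nearer to the sugar transporter and senescence gene SAG29 (4183832 to 4185313), scored 103.2 and had no glucose partner. The far peak between ANAC087, another NAC gene, and APY2, an apyrase gene, spanned 9813 bp (chromosome 5, 6042177 to 6051989). It scored 1725.7, reached both genes and had a best glucose score of 364.0. Both NAC-gene regions were thus broad, and the glucose list covered each with separate, narrower peaks.

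The remaining broad far peaks with the highest scores outside gene-poor windows were likewise shared with the glucose list. The one between AT5G65207 and TGA1, a bZIP gene of defence signalling, was 7010 bp wide (chromosome 5, 26051449 to 26058458) and scored 1934.3 without glucose, beside a glucose partner at 144.8. The one between AT5G61990 and AT5G61997, which also reached the auxin response factor gene ARF2 beyond AT5G61997, was 8409 bp wide (chromosome 5, 24902626 to 24911034) and scored 1854.0, beside 753.0. It touched several lncRNA genes. The one at AT5G11090 (chromosome 5, 3523683 to 3530507) scored 1627.5, beside 277.1.

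The far peak between WRKY11, a WRKY gene of defence signalling, and HCF153, a gene for a thylakoid protein, lay on chromosome 4 at 15289188 to 15297089. It scored 1559.9, beside a glucose partner at 376.2, and overlapped both genes. The far peak between AT5G67290 and MYBR1, also known as MYB44, a stress-related MYB gene, lay on chromosome 5 at 26849225 to 26854741 and scored 1532.9, beside 776.3. The far peak between NPL41 and GID1B, a gibberellin receptor gene, lay on chromosome 3 at 23285392 to 23290711, touched 2 tRNA genes and scored 1310.9, beside 449.5. Each of these broad peaks, from ARR4 to GID1B, overlapped at least 1 protein-coding gene and at least 1 glucose peak.

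**Figure D3:**
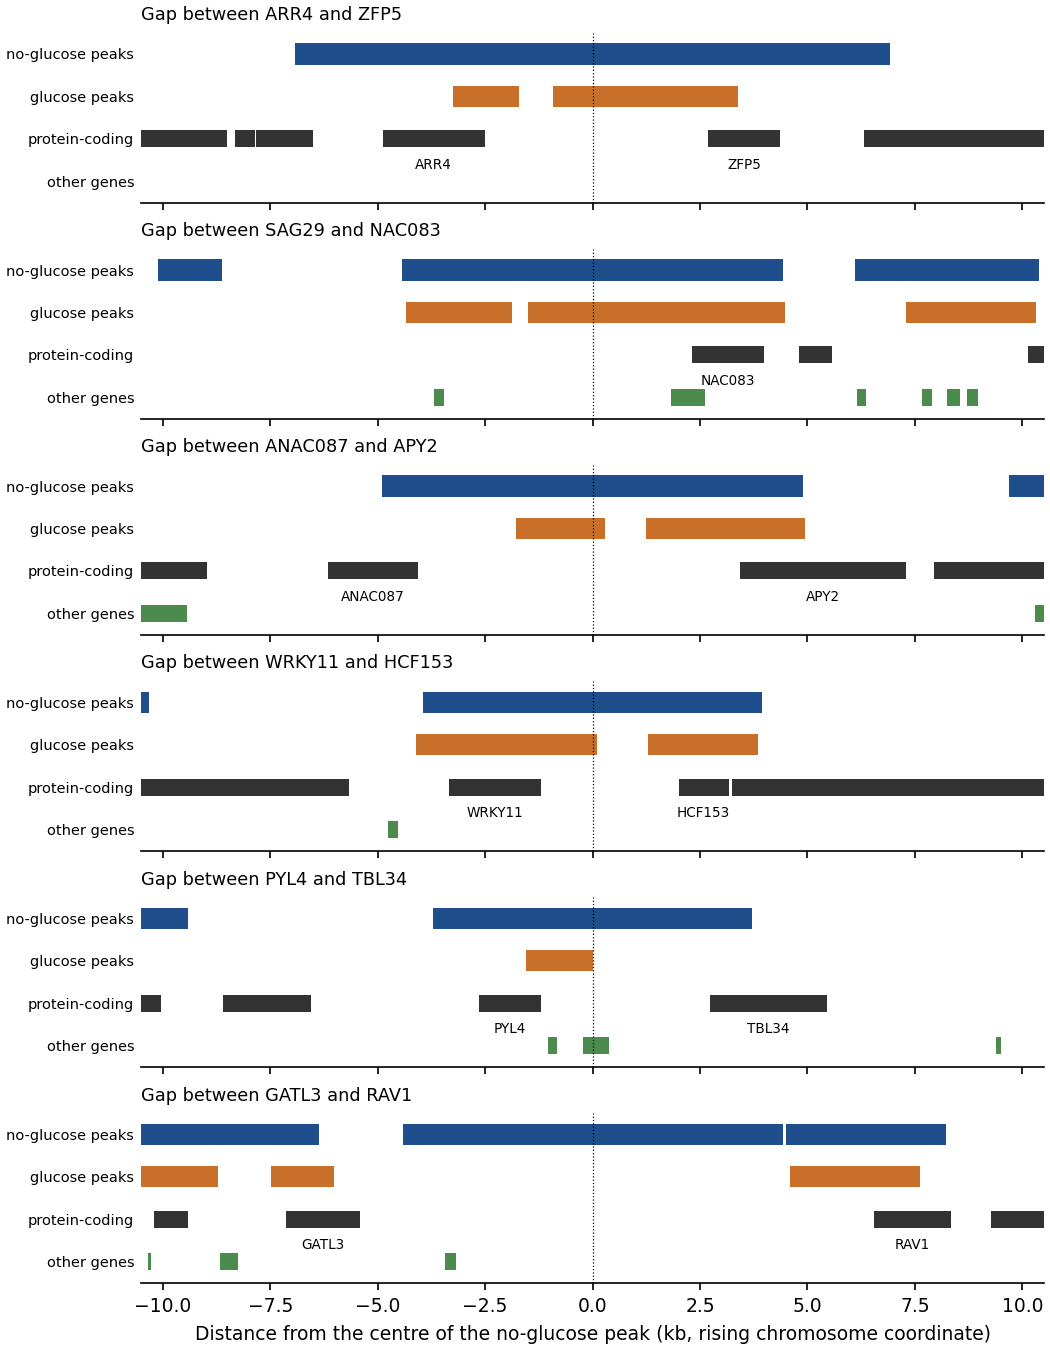
Gene gaps with a far peak, each drawn to scale around the centre of that peak, with distance from the centre in kb on the horizontal axis. Blue bars are no-glucose peaks, orange bars glucose peaks, black bars protein-coding genes and green bars other annotated genes; the ARR4 peak (13856 bp) spans its gap, while the GATL3 peak (8849 bp) touches no protein-coding gene and has no glucose peak under it.

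Some far peaks with high scores had no counterpart in the glucose list. The highest was between GATL3, a glycosyltransferase-like gene, and RAV1, a B3-domain transcription factor gene. It spanned 8849 bp (chromosome 1, 4531202 to 4540050), scored 826.1 and touched an lncRNA gene but no protein-coding gene, with its centre 5403.5 bp from GATL3 and 6542.5 bp from RAV1. A separate no-glucose peak directly beside it, which reached RAV1 and is not a far peak, did have a glucose peak under it. Next came the far peaks between ML5 and PAI3 (chromosome 1, 10293831 to 10298412; score 714.5), by RD21A, a cysteine protease gene (chromosome 1, 17284662 to 17289138; 703.9), by SAUR26, a small auxin-up RNA gene (chromosome 3, 984452 to 987635; 623.7), and between RMA1, a ubiquitin ligase gene, and ATHM2, a thioredoxin gene (chromosome 4, 1558687 to 1562462; 553.4). With 1 library per treatment, absence from the glucose list is not evidence of a response to glucose.

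The families of the nearest genes were counted next. WRKY proteins are transcription factors best known in defence, senescence and ABA responses. A WRKY gene was the nearest protein-coding gene of 13 of 402 far peaks (3.23%, exact 95% interval 1.73% to 5.47%) and of 25 of the other 3753 peaks (0.67%, 0.43% to 0.98%), beside 0.915% of the whole list. No test was made, since the families were chosen with earlier results known. WRKY genes also lie beside longer gaps than genes in general. A gap of more than 2 kb lay next to 50 of 67 WRKY genes (74.6%), against 10766 of all 27444 protein-coding genes (39.2%). The longer of the gaps beside a WRKY gene had a median of 3341 bp, against 1430 bp for all genes. What part gap length had in the WRKY share was not tested.

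The WRKY far peaks with the highest scores were wide. After WRKY11 came those of WRKY6, a senescence-related gene (score 874.5; glucose partner 246.3), WRKY23 (577.6; 108.9), WRKY29 (538.8; no partner) and WRKY22 (488.3; 145.6), of which WRKY22 and WRKY29 act in the response to bacterial flagellin. With WRKY11 these were 4161 to 7902 bp wide. The remaining 8 scored between 118.2 (WRKY38) and 167.7 (WRKY47), and of these those by WRKY61 (134.2; 50.9) and WRKY67 (129.9; 55.2) had a glucose partner. Families were counted by how the gene symbol starts. A member known only by its locus, or listed under another kind of symbol, such as the bHLH gene SPT, is therefore not counted. The family counts are thus minimum counts, for far peaks and the others alike.

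Over all 11 transcription factor and hormone-response families counted, the nearest gene was a family member for 31 of 402 far peaks (7.71%) and for 99 of 3753 other peaks (2.64%), beside 3.13% of the list. Genes of these families also lay more often than genes in general beside a gap over 2 kb (329 of 475, 69.3%). What part gap length had in the family share was likewise not tested. Beyond the peaks already described, NAC047 was nearest to 2 far peaks (scores 1282.4 and 589.5), the auxin repressor gene IAA9 to 1 (836.1), SAUR21 to 1 (728.9), MYB1 to 1 (578.6) and the auxin response factor gene ARF16 to 1 (384.5). Zinc finger genes with a ZAT or AZF symbol were nearest to no far peak, against 2 of 3753 other peaks (0.0533%). Genes with an LBD symbol were likewise nearest to none, against 6 of 3753 (0.160%). Shares this low leave the absence uninformative about far peaks.

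Of 15 genes listed here for core ABA signalling, PYL4, an ABA receptor gene, was the only one to be the nearest gene of a far peak. That is 1 of 402 (0.249%), against 10 of 3753 other peaks (0.266%) and 0.265% of the list. The PYL4 peak spanned 7440 bp (chromosome 2, 16048839 to 16056278), overlapped PYL4, TBL34 and 2 lncRNA genes, and scored 994.3. Its glucose partner was a peak of low score (46.7). Of 16 genes of the rapid stress response, WRKY53 and WRKY40 were nearest to a far peak, with scores of 164.9 and 144.1 and no glucose partner. That is 2 of 402 (0.498%), against 11 of 3753 (0.293%), beside 0.313% of the list. A far peak also lay in the gap beside PP2CA, a phosphatase gene of the ABA pathway, but nearer to AT3G11420 (chromosome 3, 3587041 to 3592263; score 978.3; glucose partner 511.2). It was chosen for mention after its values were seen. The list of 15 does not hold every ABA-related gene. Outside it, far peaks lay by HAI1 (score 168.3, glucose partner 63.65), AFP1 (802.8, glucose partner 163.4) and AFP3 (163.8, no glucose partner). These were likewise named after their values were seen.

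The far peaks of gene-poor windows were few and high in score. In 1 Mb windows with under 100 protein-coding genes lay 22 of 402 far peaks (5.47%, 3.46% to 8.17%), against 18 of 3753 other peaks (0.480%, 0.285% to 0.757%), beside 0.963% of the list. The windows were defined from the same genes as the rule, so no test was made. Of 121 windows 15 were gene-poor, and 11 of them held a far peak. Per Mb of far sequence the gene-poor windows held fewer far peaks, 22 in 12.5 Mb (1.76 per Mb), against 380 in 17.8 Mb (21.3 per Mb) in the other windows. The 22 had a median score of 511.2, against 225.9 for the 380, and a median width of 1512.5 bp, against 2120 bp. Of the 22, 17 (77.3%) overlapped a glucose peak, against 196 of the 380 (51.6%) and 8 of the 18 other peaks in gene-poor windows (44.4%), beside 49.7% of the list. An annotated gene that is not protein-coding was touched by 14 of the 22 (63.6%), against 106 of the 380 (27.9%) and 6 of the 18 (33.3%), beside 18.8% of the list. No test was made of these shares.

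The score ceiling of 3100 was reached by 5 far peaks and 9 others, and 3 of the 5 lay in gene-poor windows. The far peak at AT3G32980 (chromosome 3, 13535738 to 13542140) overlapped 4 transcribed pseudogenes and was at the ceiling in both lists. The far peak by CAS1, the gene of cycloartenol synthase (chromosome 2, 2937501 to 2939551), touched a pseudogene and was likewise at the ceiling in both. The far peak at AT3G41762 (chromosome 3, 14200861 to 14203013) scored 1752.7 in the glucose list. Beside it lay 2 far peaks on ribosomal RNA genes. One (14198804 to 14200280) overlapped AT3G41768 and AT3G41979 and scored 1662.9, beside 811.2, and the other (14197966 to 14198364) overlapped AT3G41768 alone and scored 708.0, beside 151.7.

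The 2 remaining far peaks at the ceiling lay outside gene-poor windows. One was the far peak by AT4G08330 (chromosome 4, 5267177 to 5268789), on a pseudogene and a tRNA gene, with a glucose score of 2779.5. The other, by AT2G07641 (chromosome 2, 3381690 to 3402443), was the widest far peak at 20754 bp and was at the ceiling in both lists. It lay between 3 and 4 Mb of chromosome 2, a window known to carry a long stretch of inserted mitochondrial DNA, and it overlapped 5 protein-coding genes, 4 transcribed pseudogenes and a tRNA gene. That window held 3 far peaks and 8 others, all 11 of them shared with the glucose list. What part the number of DNA copies in precipitate and input had in these scores was not tested.

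The far peaks farthest from any protein-coding gene were in the gene-poor windows too. By AT5G30520 on chromosome 5, centres lay 129305 bp (11765307 to 11766580; score 1116.1), 95069 bp (11730939 to 11732476; 173.8) and 90403 bp (11725873 to 11728210; 198.7) away, and the glucose partners scored 451.7, 606.7 and 818.7 in the same order. By AT3G32980 a centre lay 61724 bp away (13591046 to 13592599; score 306.2; glucose partner 174.0). By AT2G11910 on chromosome 2 it lay 36654 bp away, at a peak only 552 bp wide (4843820 to 4844371) with a score of 2115.8 and a glucose partner at 811.3, on a pseudogene. All of these 5 peaks were present in both lists.

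Far peaks touched noncoding genes and pseudogenes more often than the other peaks did. Of 402 far peaks 120 (29.9%) touched an annotated gene that is not protein-coding, against 662 of 3753 other peaks (17.6%), beside 18.8% of the list. The difference was 12.2 percentage points (95% interval 7.77 to 17.0; two-sided Fisher's exact test, adjusted p = 4.23e-08 over 4 tested shares). It remained past the threshold among peaks under 2 kb wide (8.91 points) and among wider ones (13.9 points), which were separated after the data were seen. By width band the share touching such a gene was 28.9% of far peaks under 1.5 kb, against 13.2% of the others, and 21.7%, against 17.9%, at 1.5 to 2 kb. It was 27.2%, against 16.4%, at 2 to 3 kb, and 31.6%, against 26.8%, at 3 to 5 kb. At 5 kb or more it was 20 of 34 far peaks, against 30 of 60 others. Genes that are not protein-coding are not placed at random relative to protein-coding genes, so this share is partly tied to the rule. The test compares the groups as the rule defined them and cannot separate the rule from a trait of far peaks. The part that the position of such genes relative to coding genes has in this difference was not tested. Peaks of 1 list are also not independent of each other, and the interval does not allow for that.

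Genes of the lncRNA class were touched by 68 far peaks (16.9%), more than those of any other class, against 417 other peaks (11.1%). Pseudogenes were touched by 17 far peaks (4.23%), against 28 others (0.746%), transcribed pseudogenes by 13 (3.23%), against 38 (1.01%), misc_RNA genes by 20 (4.98%), against 62 (1.65%), and ncRNA genes by 12 (2.99%), against 27 (0.719%). Transfer RNA genes were touched by 6 far peaks (1.49%), against 81 others (2.16%), and microRNA genes by 1 (0.249%), against 31 (0.826%). For snRNA genes it was 1 (0.249%), against 11 (0.293%), and for snoRNA genes 1 (0.249%), against 27 (0.719%). For rRNA genes it was 2 (0.498%), against 3 (0.0799%). The share of far peaks was thus not the higher one in every class. No test was made by class. The centre itself was inside such a gene for 44 far peaks (10.9%), against 140 others (3.73%).

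Single far peaks carried the rarer classes. The microRNA gene was MIR414, touched by a peak of score 196.4 by AT1G67210 (chromosome 1, 25137270 to 25139572) that had no glucose partner. The snRNA gene U1.11p was touched by a peak by AT4G16640 (chromosome 4, 9369418 to 9370967; score 385.1; no glucose partner), and snoRNA genes by a peak at GLR1.3, a glutamate receptor-like gene (chromosome 5, 19623001 to 19626109; 512.7; glucose partner 101.2). Apart from those named above, tRNA genes were touched by the far peaks at AT1G07590 (373.6; 47.5), PAO4, a polyamine oxidase gene (315.3; no partner), and AT1G78260 (267.6; 36.7). Among the highest-scoring far peaks on an lncRNA gene were, besides those above, the ones by HCS2 (1254.4; 297.4), AT2G40010 (1192.2; 298.9), AT2G05580 (1180.9; 581.9) and PLP9, a patatin-like protein gene (1156.6; 89.6).

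Far peaks were wider than the others and scored higher within the list. Their median width was 2084 bp (399 to 20754 bp), against 1758 bp (776 to 90084 bp), and their median score was 228.8, against 176.4. A width of 2 kb or more was found for 213 of 402 far peaks (53.0%), against 1441 of 3753 others (38.4%), beside 39.8% of the list. The difference was 14.6 points (9.46 to 19.7; two-sided Fisher's exact test, adjusted p = 4.23e-08). A score of 200 or more was found for 222 far peaks (55.2%), against 1542 others (41.1%), beside 42.5% of the list. The difference was 14.1 points (9.0 to 19.2; two-sided Fisher's exact test, adjusted p = 9.55e-08).

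The excess was in the broadest and highest peaks. A width of at least 5 kb was found for 34 far peaks (8.46%), against 60 others (1.60%), and 3 to 5 kb for 98 (24.4%), against 351 (9.35%), while 2 to 3 kb was found for 81 (20.1%), against 1030 (27.4%). No test was made by band. Scores of 500 or more were found for 96 far peaks (23.9%), against 249 others (6.63%).

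The size and direction of both results turned with the way a far peak was defined. With a limit of 500 bp, 65.0% of the peaks past it were 2 kb or wider, against 33.2% of the rest (31.9 points). A score of 200 or more was found for 57.9%, against 38.4% (19.5 points). The peaks added between 500 bp and 1 kb were thus wide and high in score more often than the far peaks. Neither trait was particular to far peaks. Among the 133 peaks that lay whole more than 1 kb from genes, a criterion that removes wide peaks, the share 2 kb or wider was 30.1% (-10.05 points against the rest; adjusted p = 0.0387, Fisher's exact test), and that with a score of 200 or more was 37.6% (-5.02 points; adjusted p = 0.285). Width and score also moved together. Among peaks under 2 kb wide the score difference was 6.20 points (adjusted p = 0.0712, Fisher's exact test), and among wider peaks it was 5.86 points (adjusted p = 0.105), so that the score result was not past the threshold within either width class. It was also not past it with a limit of 2 kb from genes (6.00 points; adjusted p = 0.224) or among peaks above the median score (4.0 points; adjusted p = 0.146, Fisher's exact test).

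**Figure D4:**
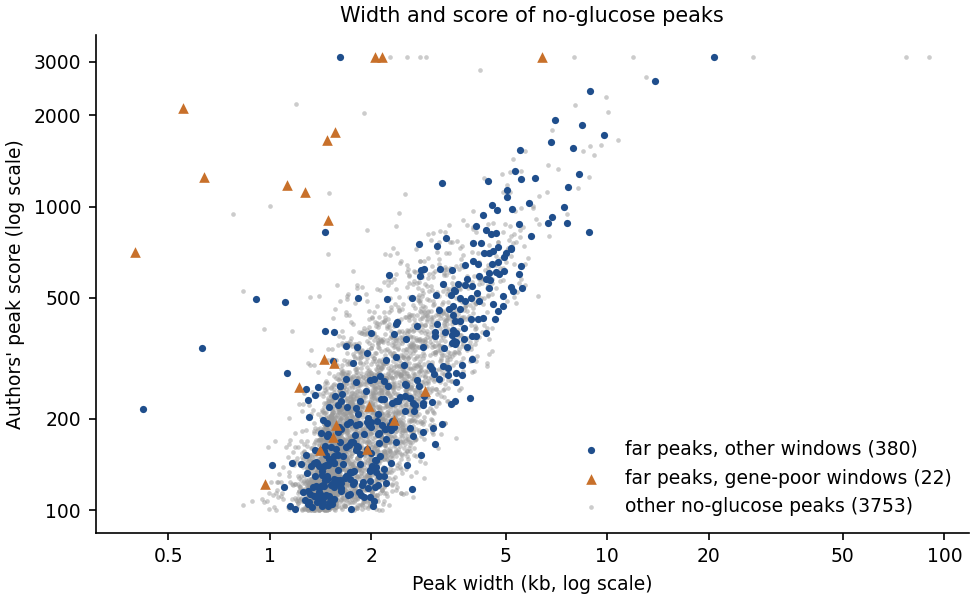
Width in kb on a log axis against the deposited score on a log axis for each no-glucose peak, with far peaks drawn over the other peaks and those in gene-poor windows marked. Far peaks reach the broad, high-scoring corner (96 score 500 or more), and several far peaks of gene-poor windows stand above the main cloud, with a median score over all 22 of 511.2 at a median width of 1512.5 bp.

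The share of far peaks that recurred in the glucose list was not distinguishable from that of the others at this number of peaks. Of 402 far peaks 213 (53.0%, 48.0% to 58.0%) overlapped a glucose peak by at least 1 bp, against 1851 of 3753 others (49.3%, 47.7% to 50.9%), beside 49.7% of the list. The difference was 3.66 points and its 95% interval reached from -1.47 to 8.75 (two-sided Fisher's exact test, adjusted p = 0.172). The direction was negative when centres had to lie within 250 bp (-2.91 points) or when the overlap had to be 50% of both peaks (-2.40 points). Counting only glucose peaks with a score of 100 or more, 24.9% of far peaks were shared, against 14.3% of the others, a difference of 10.6 points (adjusted p = 1.28e-07, Fisher's exact test). Sharing with any glucose peak rose with the no-glucose score, and high scores were more frequent among far peaks. The part of score in the difference of 10.6 points was not tested. By score band, sharing with any glucose peak was 25.9% of far peaks, against 29.3% of the others, at 100 to 150. It was 36.8%, against 43.1%, at 150 to 200. It was 43.1%, against 60.1%, at 200 to 300, and 68.9%, against 76.5%, at 300 to 500. At 500 or more it was 92.7%, against 92.8%. The share of far peaks was thus the lower one in the bands from 100 to 500 and nearly equal at 500 or more. Only at 200 to 300 did the exact 95% interval of far peaks (30.8% to 56.0%) leave out the share of the others. No test was made by band.

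Sharing was highest in wide peaks of both groups. In far peaks it was 45.8% under 1.5 kb, 37.7% at 1.5 to 2 kb, 40.7% at 2 to 3 kb, 71.4% at 3 to 5 kb and 94.1% at 5 kb or more. In the other peaks it was 33.3%, 49.4%, 54.6%, 70.4% and 93.3% in the same bands. The share of far peaks was thus below that of the others from 1.5 to 3 kb and above it under 1.5 kb, and no test was made by band. By reach, 98 of the 124 far peaks that overlapped a protein-coding gene were shared (79.0%), against 58 of the 145 that ended within 1 kb (40.0%) and 57 of the 133 that lay wholly apart (42.9%). Broad regions that reach a gene made up 98 of the 213 shared far peaks. Reach is tied to width, so the split by reach is not separate from that by width band.

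**Figure D5:**
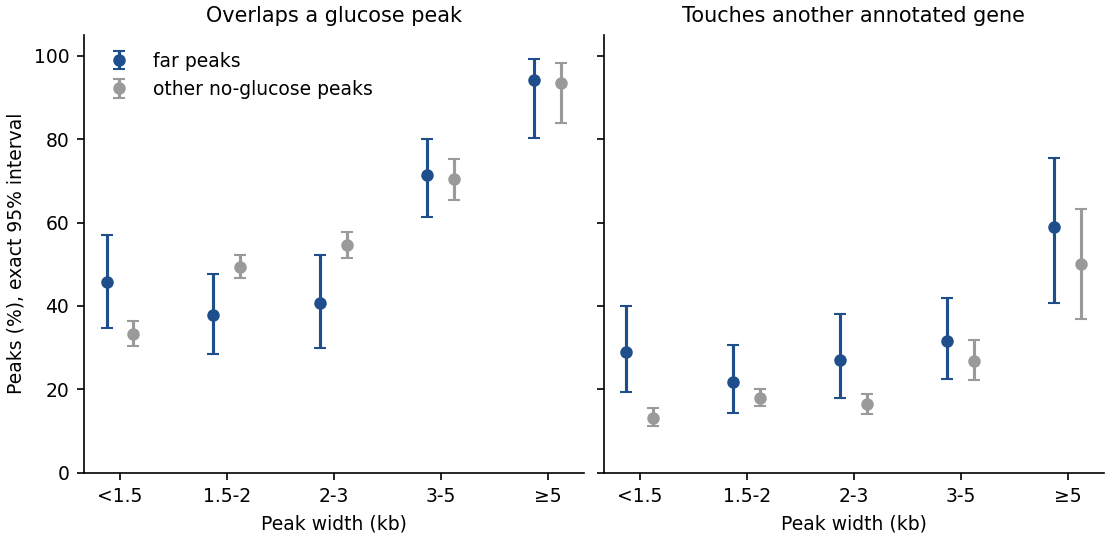
Share of no-glucose peaks that overlap a glucose peak (left) and that touch an annotated gene that is not protein-coding (right), in percent with exact 95% intervals, by peak width in kb on the horizontal axis, for far peaks and the other peaks. At 5 kb or more 94.1% of far peaks and 93.3% of the others overlap a glucose peak. The far peaks sit below the others between 1.5 and 3 kb (37.7% and 40.7%, against 49.4% and 54.6%), and on the right they sit above the others in every band.

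The glucose partners of far peaks were mostly narrower, and their centres lay at varied distances. The centre of the best partner was a median of 205.5 bp from that of the far peak (upper quartile 766 bp, range 0 to 3212 bp). It was within 250 bp for 113 of 213 (53.1%). The partner was narrower in 144 of 213 (67.6%), with a median width of 1808 bp, against 2805 bp for the 213 far peaks. It met the same rule of distance in 160 of 213 (75.1%). Far peaks overlapped 2 or more glucose peaks in 18 of 213 cases (8.45%), against 64 of 1851 for the others (3.46%). The shared far peaks were also wider than the other shared peaks (median 2805 bp, against 1907 bp), and the part of width was not tested. Among the far peaks so divided were those at ARR4, NAC083, APY2, TGA1, ARF2, AT5G11090 and MYBR1.

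The score was higher without glucose for nearly all shared far peaks, as it was for the others, and the lists start at different scores. The glucose score was the higher one in 12 of 213 far peaks (5.63%, 2.94% to 9.63%), against 59 of 1851 others (3.19%, 2.44% to 4.09%). The largest difference was at the far peak by ABCC13 (chromosome 2, 3509109 to 3510230), in the chromosome 2 window described above, which scored 282.0 without glucose and 3100 with it. Next by size were the 2 far peaks by AT5G30520 given above. On the arms the glucose score was higher at AT1G30780 (826.7 without glucose and 978.7 with it) and GH3.1, a gene of an auxin-conjugating enzyme family (142.0 and 233.0), among others. These peaks were named after their values were seen.

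In 10 of the 388 gaps there was more than 1 far peak. At AT4G17800 a run of 3 far peaks (chromosome 4, 9895440 to 9906031) had scores of 646.0, 411.4 and 405.5. Between HB-7, an ABA-induced homeobox gene, and AT2G46690 there were 2, the one at HB-7 with a score of 1132.2 (19166212 to 19171266 of chromosome 2; glucose partner 113.6) and the other with 110.8. By RGA1, a DELLA repressor gene of gibberellin signalling, there were 2, with scores of 197.9 and 102.5, and between AT4G36925 and SPT, a bHLH gene of carpel development, there were 2, with 344.3 and 410.1. In each of these a second peak was called in the same gap as the first and was counted as its own far peak; merging peaks within 200 bp left 397 far peaks.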

How the data were processed

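ANAC060-GFP precipitates and wild-type inputs were sequenced from seedlings with and without glucose, 1 library per group. The submitters' processing notes name FastQC, BWA 0.7.15-r1140 and the TAIR10 build. Per the file headers, MACS called the peaks without its local background model, and the glucose list had a p-value threshold of 0.001. Its version is not given in these sources. The deposited score per peak is the authors' value. No-glucose peak names carry numbers up to 7292 for 4155 peaks, and the reason for the missing numbers is not stated. With no read counts analysed here, sequencing depth is unknown.

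Peak starts were raised by 1 for printing, and centres were taken from the deposited positions; reading the starts as 1-based gave 403 far peaks. Gene names and bodies came from the RefSeq table of TAIR10.1, whose positions on the nuclear chromosomes were taken as those of TAIR10. It holds no strand, exons or transposons, and sequences and motifs were not analysed here. Shares were compared by two-sided Fisher's exact test with Benjamini-Hochberg adjustment over 4 shares at 0.05 and Newcombe intervals; other intervals are exact binomial at 95%. Python 3.11.15, numpy 2.4.6, pandas 2.3.3, scipy 1.17.1 and matplotlib 3.10.9 were used, and the steps were tested on simulated data. Named are the 10 highest far peaks, the 10 highest outside gene-poor windows and chromosome 2 from 3 to 4 Mb, the 5 highest unshared, the 5 widest, the 5 farthest, the 5 on each side of the limit, those on small RNA, tRNA or rRNA genes, the 10 highest on lncRNA genes and those nearest to a listed gene. Further peaks were named after their values were seen. The far peaks and lists were chosen with earlier results of these data known.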

Additional observations from a re-analysis of the deposited data

How the results depend on the processing

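No paired analysis was possible because each group has 1 library, and no library could be left out. The share of far peaks in the list was 20.8% at a limit of 500 bp, 3.44% at 2 kb, 3.20% for whole peaks beyond 1 kb, 7.17% when every annotated gene counted and 12.1% among peaks above the median score. The overlap difference was negative at 2 kb (-0.75 points), for whole peaks (-7.04), with 50% reciprocal overlap (-2.40), with centres within 250 bp (-2.91) and among peaks under 2 kb wide (-1.38), and it passed the threshold with glucose scores of 100 or more (10.6). The width difference fell as the distance limit rose, from 31.9 points at 500 bp to 14.6 at 1 kb and 7.30 at 2 kb (adjusted p = 0.165 at 2 kb, Fisher's exact test). It was -10.05 for whole peaks, a criterion that removes wide peaks, and 21.9 with a width limit of 3 kb. The score difference was 19.5 points at 500 bp and 17.2 with a score limit of 500. The score difference of 14.1 points was no longer past the threshold at 2 kb (6.00 points; adjusted p = 0.224), among peaks above the median score (4.0; 0.146), among peaks under 2 kb wide (6.20; 0.0712) or among wider ones (5.86; 0.105; all Fisher's exact test), and was -5.02 for whole peaks. The causes were not tested. The difference in other genes touched was -13.04 points when far peaks had to avoid every annotated gene, which removes such contacts by construction, and kept its direction and its side of the threshold in the other 13 alternatives. The gene-poor share was 2.99% with a limit of 50 genes per Mb and 9.45% with 150. Leaving out gene-poor windows and chromosome 2 from 3 to 4 Mb, together or apart, changed the side of the threshold of none of the 4 shares. The width classes, and leaving out both kinds of window at once, were chosen after seeing the data. Depth was unknown, so a peak missing from a list may lie below its lowest score.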

Other observations

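In the glucose list 246 of 2859 peaks (8.60%) met the same rule of distance. Of these 164 (66.7%) overlapped a far peak of the no-glucose list, 38 (15.4%) overlapped another no-glucose peak alone and 44 (17.9%) overlapped none. The 44 had a median glucose score of 47.7 and a median distance of 2479.75 bp from the nearest protein-coding gene. The highest of them stood by AT2G10602 (chromosome 2, 4129364 to 4131348; score 441.7), AT2G18320 (chromosome 2, 7959590 to 7960993; 412.2), PMT2 (chromosome 2, 7005391 to 7008865; 278.6), and AT3G32980 (chromosome 3, 13586481 to 13587824; 253.1). In gene-poor windows lay 28 of the 246 (11.4%). The same shares over the whole glucose list are not given here, so these counts are a description alone.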
